A study of Homo sapiens with 6 samples.

Results

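The genes described here belong to the Hippo pathway and its output through YAP and TEAD. They are 10 genes chosen by name from the 81496 gene symbols of the array, namely the co-activators YAP1 and WWTR1 (the gene of TAZ), the DNA-binding factor TEAD1, the regulators LATS2, AMOTL2 and AJUBA, and the target genes CYR61, CTGF, ANKRD1 and AXL. CYR61 and CTGF are the names used on the array for CCN1 and CCN2. Each of the 10 genes was represented by 1 probe set, so no choice between probe sets was needed.

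The cells were MCF10.AT1, a preneoplastic line derived from the human breast epithelial line MCF10A and carrying an activated HRAS gene, and MCF10.AT1-R, a line selected from it in fluvastatin. Selection used increasing doses that the labels give as 1, 5 and up to 20 µM, and MCF10.AT1 was untreated. The labels do not say whether fluvastatin was still present when RNA was taken from MCF10.AT1-R, or whether this line is 1 clone. Total RNA of 3 replicates per line was hybridized to Clariom D arrays, named A01, A02 and A03 for MCF10.AT1 and B02, B03 and B04 for MCF10.AT1-R. The labels call the replicates biological without saying that they were separate cultures, so p-values cover no variation beyond these arrays.

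YAP and TAZ are co-activators that lack a DNA-binding domain of their own and act on genes through the TEAD factors. The Hippo kinases MST1 and MST2 (STK4 and STK3) activate LATS1 and LATS2, which phosphorylate YAP and TAZ and keep them out of the nucleus. Fluvastatin blocks HMG-CoA reductase, the enzyme that limits the rate of the mevalonate pathway. Arrays measure the RNA of these genes and not the phosphorylation or the location of YAP and TAZ.

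Values are log2 RMA values of 1 probe set per array, and a log2 change is the mean of MCF10.AT1-R minus the mean of MCF10.AT1. A03, the array the study removed as an outlier, stood apart, with correlations between 0.779 and 0.795 with the other arrays over all transcript probe sets, against 0.967 to 0.977 among the other 5. It was left out of the comparison and is given apart. The 95th percentile of the 612 negative control probe sets lay between 2.88 and 3.14 on the 5 arrays compared, and a value above that of its own array is called above background. Probe sets with a low mean or a low SD over the 5 arrays were removed without use of the line labels. This SD includes any difference between the lines, so probe sets that agreed between the lines were removed more readily. The 51457 that remained were tested with limma at an FDR of 5% after Benjamini-Hochberg adjustment. Of these, 620 (1.2%) passed, 0.758% higher and 0.447% lower in MCF10.AT1-R, and the smallest log2 change among them was 1.07. SE is the standard error of a change. After the filter limma used 1 common SD of 0.34 for every tested probe set. An adjusted p of this test therefore follows the size of the change and not the spread of the gene's own arrays.

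None of the 10 genes passed an FDR of 5% in limma. AJUBA came nearest, with a level about 2.08-fold higher in MCF10.AT1-R. The co-activator YAP1 and the factor TEAD1 overlapped between the lines. The co-activator WWTR1 was lower on every MCF10.AT1-R array, by a gap within the SD of these arrays. Among the best known targets, CYR61 and AMOTL2 were higher on every MCF10.AT1-R array, CTGF was lower on every one, AXL overlapped between the lines, and ANKRD1 was within background.

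Of the 10 genes, 6 were tested after the filter, 3 (TEAD1, CTGF and AXL) were removed for a low SD and 1 (ANKRD1) for a low mean. Values of the removed genes come from limma over all 135750 transcript probe sets without a filter. At an unadjusted p below 0.05, 2 of the 6 tested genes were higher in limma (AMOTL2 and AJUBA) and none was lower, against 3.98% of all tested probe sets higher and 8.26% in either direction. For 5 of the 10 genes every array of one line lay beyond every array of the other, 3 higher and 2 lower in MCF10.AT1-R. This order was seen for 23.3% of all transcript probe sets and 26.7% of the tested ones.

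**Figure D1:**
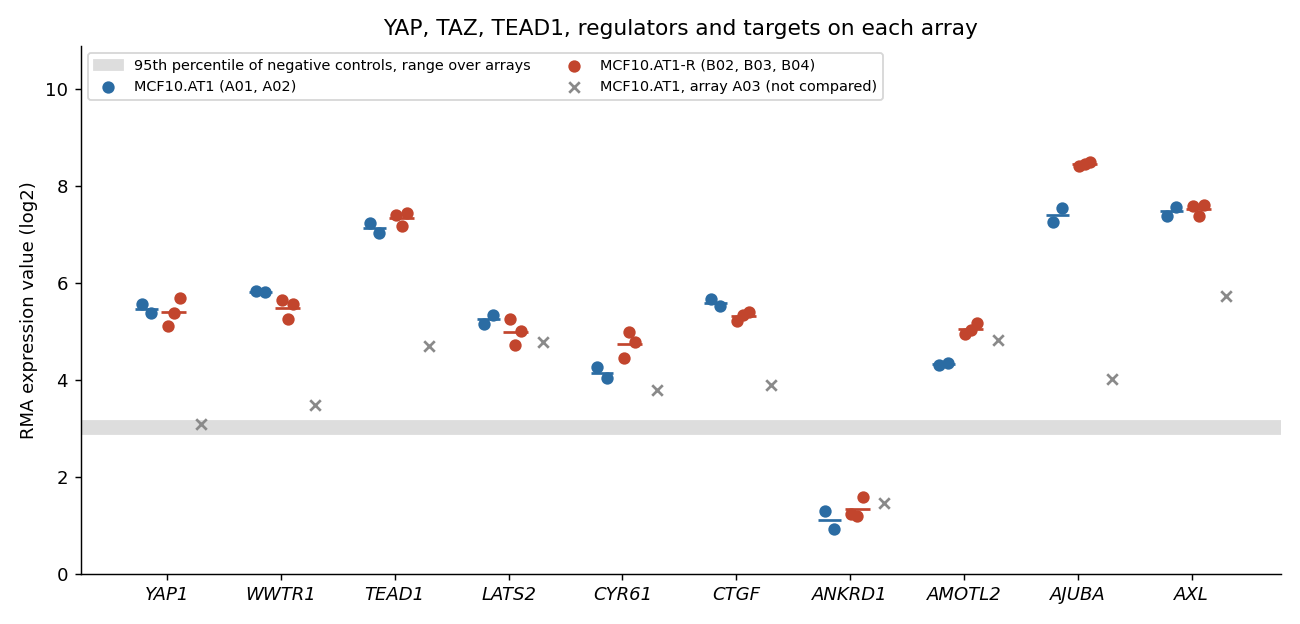
RMA expression value (log2, y axis) of each of the 10 genes (x axis) on every array, with short lines at the mean of each line and a grey band for the 95th percentile of the negative controls. AJUBA is the clearest separation, with MCF10.AT1-R arrays at 8.42 to 8.49 and MCF10.AT1 arrays at 7.25 and 7.55, and ANKRD1 lies below the band on every array.

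The promoters of target genes and regulators were read from the RefSeq table of GRCh38.p14, which spans 250 bases before to 50 after each annotated start, and are shown because target genes and regulators among the 10 differed in the order of the lines. For 8 of the 10 genes the table holds 12 promoters, and for CYR61 and TEAD1 none was matched. The letters GGAATG, the core of the site that TEAD factors bind, were searched on both strands (CATTCC on the other strand). They occurred in 7 of the 12 promoters and in 14% of all 35116 promoters in the table. The genes were chosen as members of this pathway, and some count with 2 promoters, so this contrast is not a test. In the promoters below, 5′ to 3′ in the direction of the gene, capitals mark these letters. The first is that of CTGF on chr6:131951323-131951622 (minus strand), the second that of ANKRD1 on chr10:90921038-90921337 (minus strand), the third 1 of the 2 AMOTL2 promoters, on chr3:134374398-134374697 (minus strand), and the fourth 1 of the 2 AJUBA promoters, on chr14:22976793-22977092 (minus strand).
CTGF: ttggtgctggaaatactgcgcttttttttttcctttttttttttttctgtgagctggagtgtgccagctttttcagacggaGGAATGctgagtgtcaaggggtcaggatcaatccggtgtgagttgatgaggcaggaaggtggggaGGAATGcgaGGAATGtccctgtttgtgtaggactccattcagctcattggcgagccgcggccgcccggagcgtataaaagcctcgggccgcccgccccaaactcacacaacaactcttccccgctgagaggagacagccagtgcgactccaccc
ANKRD1: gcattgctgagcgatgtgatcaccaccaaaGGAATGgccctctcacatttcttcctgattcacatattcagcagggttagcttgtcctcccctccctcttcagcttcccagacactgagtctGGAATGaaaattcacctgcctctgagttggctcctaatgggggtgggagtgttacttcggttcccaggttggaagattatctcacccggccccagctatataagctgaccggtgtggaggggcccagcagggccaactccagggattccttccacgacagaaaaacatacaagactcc
AMOTL2: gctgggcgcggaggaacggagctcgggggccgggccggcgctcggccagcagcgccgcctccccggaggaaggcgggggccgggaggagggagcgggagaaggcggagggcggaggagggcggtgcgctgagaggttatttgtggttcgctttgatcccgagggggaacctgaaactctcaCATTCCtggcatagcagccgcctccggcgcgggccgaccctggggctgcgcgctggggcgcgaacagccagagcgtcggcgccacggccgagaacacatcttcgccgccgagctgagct
AJUBA: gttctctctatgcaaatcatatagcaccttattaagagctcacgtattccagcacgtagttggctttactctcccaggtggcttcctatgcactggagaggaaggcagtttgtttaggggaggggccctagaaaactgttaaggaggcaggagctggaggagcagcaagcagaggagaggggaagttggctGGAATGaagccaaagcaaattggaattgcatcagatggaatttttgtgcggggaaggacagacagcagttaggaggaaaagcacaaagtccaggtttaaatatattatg

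CTGF held 3 matches, at -169, -104 and -95 from its start, a number that 0.128% of all promoters reached. ANKRD1 held 2, at -220 and -128, and 1.37% of all promoters held 2 or more. These genes, with the most matches among the 8 that have a promoter in the table, were lower on every MCF10.AT1-R array (CTGF) and within background (ANKRD1). The AMOTL2 promoter held 1 match at -69 and the AJUBA promoter 1 at -59, and the other annotated promoter of each gene held none. YAP1, LATS2 and 1 of the 2 AXL promoters also held 1 match each, and neither WWTR1 promoter held any. A match is a description of the letters in this window.

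YAP1, the co-activator that LATS kinases phosphorylate, read 5.57 on A01 and 5.37 on A02, and 5.12, 5.38 and 5.68 on B02, B03 and B04. The MCF10.AT1-R arrays spanned the MCF10.AT1 arrays on both sides. The log2 change was -0.07 (95% interval -0.69 to 0.54, limma adjusted p = 0.958), so a doubling or a halving lay outside the interval, while smaller changes in either direction could not be told apart.

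WWTR1, the gene of TAZ, read 5.83 and 5.81 on the MCF10.AT1 arrays and 5.64, 5.26 and 5.56 on the MCF10.AT1-R arrays. All MCF10.AT1-R arrays were lower, by a gap of 0.18 between the nearest pair, which was about the SD of the MCF10.AT1-R arrays (0.20, n = 3). The log2 change was -0.34 (SE 0.31, limma adjusted p = 0.835).

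TEAD1, the factor that brings YAP and TAZ to DNA, read 7.24 and 7.04 in MCF10.AT1 against 7.40, 7.17 and 7.45 in MCF10.AT1-R. The arrays overlapped, with a log2 change of 0.20 (95% interval -0.24 to 0.65, limma adjusted p = 0.893 without a filter).

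LATS2, a kinase that inhibits YAP and TAZ and whose gene is itself a YAP target, read 5.16 and 5.34 in MCF10.AT1 against 5.25, 4.72 and 5.01 in MCF10.AT1-R. The arrays overlapped because of B02. The log2 change was -0.26 (95% interval -0.87 to 0.35, limma adjusted p = 0.847).

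AMOTL2, an angiomotin family protein that binds YAP and is also a YAP target, read 4.30 and 4.34 in MCF10.AT1 against 4.95, 5.03 and 5.18 in MCF10.AT1-R. Every MCF10.AT1-R array was higher, and the gap of 0.61 between the lines exceeded the SD of either (0.03, n = 2, and 0.12, n = 3). The log2 change of 0.73 (SE 0.31, 95% interval 0.12 to 1.34) corresponds to 1.66-fold and did not pass the threshold (limma adjusted p = 0.409). Among all 51457 tested probe sets, 2373 had a larger absolute change.

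AJUBA, a LIM protein that binds LATS kinases and limits their action on YAP, read 7.25 and 7.55 in MCF10.AT1 against 8.42, 8.46 and 8.49 in MCF10.AT1-R. The MCF10.AT1-R arrays lay within an SD of 0.03 (n = 3), and the lowest of them was 0.87 above the highest MCF10.AT1 array. The log2 change was 1.06 (SE 0.31, 95% interval 0.44 to 1.67), and the adjusted p of 0.0555 from limma was just above the threshold, with 655 tested probe sets showing a larger absolute change. Whether AJUBA passed varied with the settings. It passed with the trend option of limma, which lets the variance depend on the level (limma adjusted p = 3.64e-12), with values raised to the negative controls (0.0171, where 1.41% of probe sets passed) and with array weights (0.0366, where 1.43% passed). It did not pass with the low-expression filter alone (limma adjusted p = 0.115), where 0.268% of probe sets passed, or without a filter (limma adjusted p = 0.167), where 0.13% passed. With the trend option it was the only one of the 10 genes that passed, against 1.69% of all tested probe sets higher and 2.68% in either direction. It was also the only one past the threshold with the low-expression filter and the trend option together, where 1.6% of probe sets passed.

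CYR61, a secreted matrix protein and one of the most used readouts of YAP, read 4.26 and 4.03 in MCF10.AT1 against 4.46, 4.98 and 4.79 in MCF10.AT1-R. All MCF10.AT1-R arrays were higher, the nearest by 0.20, which was within the SD of the MCF10.AT1-R arrays (0.26, n = 3). The log2 change was 0.60 (95% interval -0.01 to 1.21, limma adjusted p = 0.618).

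CTGF, a protein of the same CCN family and the other common readout, had the opposite order. It read 5.67 and 5.52 in MCF10.AT1 against 5.22, 5.34 and 5.39 in MCF10.AT1-R, so that every MCF10.AT1-R array was lower. The log2 change was -0.28 (95% interval -0.70 to 0.14, limma adjusted p = 0.838 without a filter). The gap of 0.13 between the lines was close to the SDs of 0.11 (n = 2) and 0.09 (n = 3).

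Related genes were also compared within each array, over 4 pairs chosen after their values were seen. CYR61 minus CTGF was -1.42 and -1.50 in MCF10.AT1 against -0.76, -0.36 and -0.60 in MCF10.AT1-R, which is 0.88 higher on average. The exact permutation test gave p = 0.1 (two-sided), the smallest value that 2 arrays against 3 allow, and 0.4 after Benjamini-Hochberg adjustment over the 4 pairs, so no pair could have passed. The corresponding difference between the lines was -0.65 for AMOTL2 minus AMOTL1 (exact p = 0.2), 0.26 for YAP1 minus WWTR1 (exact p = 0.4) and -0.15 for LATS2 minus LATS1 (exact p = 0.5). Since the probe sets differ, these differences are not ratios of the amounts of the RNAs.

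ANKRD1, an ankyrin repeat protein and a strong YAP target in many cells, read 1.29 and 0.93 in MCF10.AT1 against 1.24, 1.18 and 1.58 in MCF10.AT1-R. All 5 values were below the background of their arrays, so no change is given for it. AXL, a receptor tyrosine kinase and YAP target, read 7.38 and 7.57 in MCF10.AT1 against 7.58, 7.39 and 7.60 in MCF10.AT1-R. AXL thus overlapped between the lines, and its log2 change of 0.05 had a 95% interval of -0.39 to 0.48 (limma adjusted p = 0.98 without a filter).

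**Figure D2:**
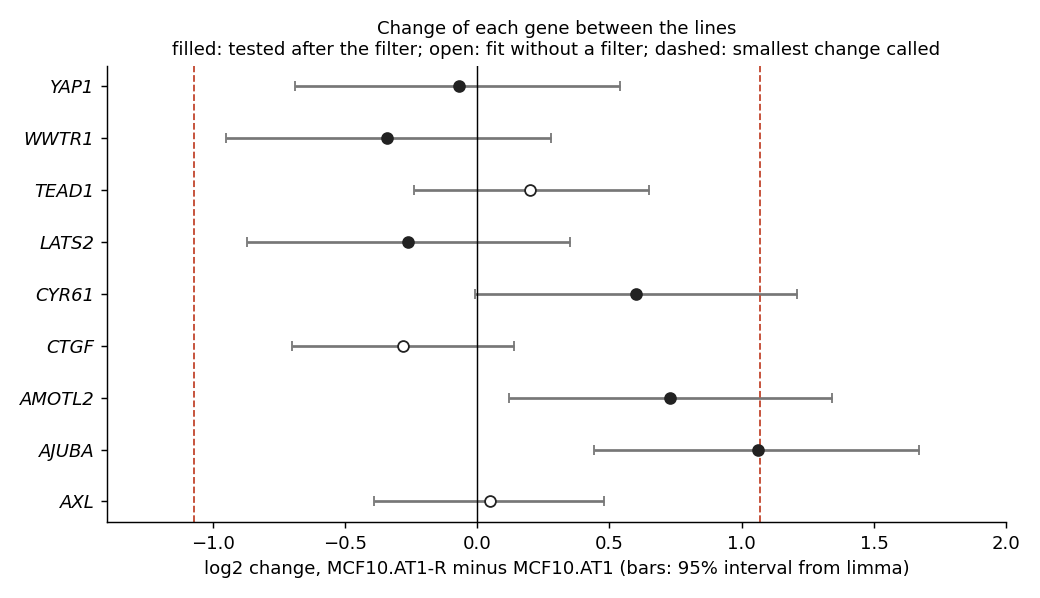
Log2 change of 9 of the 10 genes (x axis, MCF10.AT1-R minus MCF10.AT1) with 95% intervals from limma. ANKRD1, within background, is not drawn. Filled points were tested after the filter, open points come from limma without a filter, and dashed lines mark the smallest change called, 1.07; AJUBA at 1.06 lies at that line, and the intervals of AMOTL2 and AJUBA are the only ones drawn that do not reach 0.

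On A03, 7 of the 10 genes read lower than on each of the other arrays, and the largest distance to the lowest other array was -3.23, for AJUBA (4.02 on A03). The exceptions were LATS2 (4.78), ANKRD1 (1.45) and AMOTL2 (4.82), and the AMOTL2 value lay between the lines. With A03 counted as MCF10.AT1, CYR61, AMOTL2 and AJUBA were still higher on every MCF10.AT1-R array, against 6.14% of the probe sets tested over 6 arrays, and 15.3% in either direction. WWTR1 and CTGF then overlapped between the lines. For CYR61, AJUBA, WWTR1 and CTGF this outcome was fixed, since A03 read below every other array. Only for AMOTL2 could the order have changed or held. No gene of the 10 passed with A03 added, where 0.0447% of all tested probe sets did, and the lowest adjusted p among them was 0.777 from limma.

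The rest of the pathway was described from 3 lists with 44 genes, each found on the array and represented by its probe set with the highest mean. In limma 5 of the 36 genes tested after the filter passed an FDR of 5%, all higher in MCF10.AT1-R, against 0.758% of all tested probe sets. They were the TEAD cofactors VGLL1 and VGLL3, the regulators AMOTL1 and WWC1, and the target F3. No gene of these lists passed as lower. With the low-expression filter alone WWC1 (limma adjusted p = 0.0615), AMOTL1 (0.127) and F3 (0.0884) did not pass, and without a filter VGLL3 (0.0564) did not either. With A03 added, VGLL1 alone of the 5 passed, while the limma adjusted p of the other 4 was 0.777. The median log2 change of the 36 was 0.30, against -0.01 over all tested probe sets. The lists were chosen with earlier results of these data known. These contrasts with all tested probe sets are thus a description and not a test. All tested probe sets are not matched to the lists in level. The filter kept means higher than 1.88, a limit below background, while 38 of the 44 list genes were above background on all 5 arrays. The part of level in the comparisons of genes and lists with all tested probe sets was not tested.

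**Figure D3:**
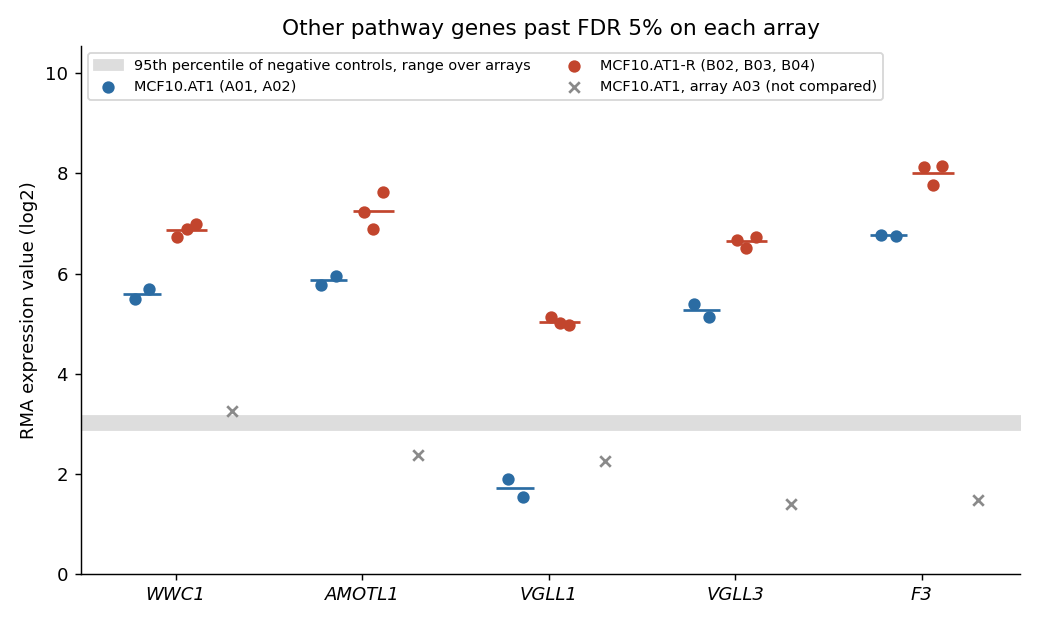
RMA expression value (log2, y axis) of the 5 other pathway genes past FDR 5% (x axis) on every array, with short lines at the mean of each line and a grey band for the 95th percentile of the negative controls. The MCF10.AT1-R arrays lie above both MCF10.AT1 arrays for each gene, and VGLL1 is below the band in MCF10.AT1 and at 4.98 to 5.13 in MCF10.AT1-R.

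The largest change was in VGLL1, a vestigial-like protein that binds TEAD factors in place of YAP. It read 1.90 and 1.54 on the MCF10.AT1 arrays, not above background, and 5.13, 5.01 and 4.98 on the MCF10.AT1-R arrays. With the MCF10.AT1 values raised to the 95th percentile of the negative controls (a mean of 3.08), VGLL1 was at least 3.88-fold higher in MCF10.AT1-R. The adjusted p from limma was 0.000357 with values raised in this way and 5.4e-23 on the unfloored values. The MCF10.AT1 mean of 1.72 was below the filter limit of 1.88, so VGLL1 was kept only through its MCF10.AT1-R arrays. Without a filter VGLL1 still passed (limma adjusted p = 0.000843). It passed under every alternative tried, with an adjusted p between 6.92e-25 and 0.0387.

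VGLL3, a second cofactor of this family, rose from 5.40 and 5.14 to 6.68, 6.52 and 6.74, a log2 change of 1.38 (SE 0.31, limma adjusted p = 0.00181). Without A02 VGLL3 no longer passed (limma adjusted p = 0.22). The remaining genes of this list, VGLL2, VGLL4 and the factors TEAD2, TEAD3 and TEAD4, did not pass, with TEAD3 at 5.40 and 5.27 in MCF10.AT1 against 5.70, 5.73 and 5.72 in MCF10.AT1-R. The log2 change of TEAD3 was 0.38 (limma adjusted p = 0.822). VGLL2 was below background on all 5 arrays.

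Of the 21 other Hippo regulators, 19 were tested, and 2 passed as higher, against 0.758% of all tested probe sets. AMOTL1, an angiomotin family protein like AMOTL2, read 5.78 and 5.95 in MCF10.AT1 against 7.24, 6.89 and 7.63 in MCF10.AT1-R, a log2 change of 1.38 (SE 0.31, limma adjusted p = 0.00173). Its second probe set, much dimmer at a mean of 3.19, showed a log2 change of 0.33, and with both averaged AMOTL1 did not pass (0.86, limma adjusted p = 0.232). WWC1, the gene of KIBRA, a scaffold that promotes LATS activity, read 5.49 and 5.70 in MCF10.AT1 against 6.74, 6.89 and 7.0 in MCF10.AT1-R, a log2 change of 1.28 (SE 0.31, limma adjusted p = 0.00594).

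FAT1, a large cadherin that acts upstream of the Hippo kinases, had a log2 change of 0.77 (limma adjusted p = 0.346), and read 8.86 and 8.94 in MCF10.AT1 against 9.65, 9.57 and 9.81 in MCF10.AT1-R. It passed with the trend option (limma adjusted p = 1.27e-13), as did STK3 and SAV1, the kinase MST2 and its scaffold, which are named after their values were seen. Over the 19 tested regulators the log2 change ranged from -0.42 to 1.38 with a median of 0.27, and 9 were higher and 2 lower on every MCF10.AT1-R array, against 12.9% and 13.8% of all tested probe sets. AMOTL1 did not pass without A01 (limma adjusted p = 0.153), A02 (0.0638) or B04 (0.05), and WWC1 did not pass without A01 (0.283) or A02 (0.107).

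The other targets were the 16 remaining genes of a published list of YAP and TAZ targets that also holds LATS2, AMOTL2, CYR61, CTGF, ANKRD1 and AXL. Of these 16, 10 were tested and 1 passed as higher, against 0.758% of all tested probe sets. F3, the gene of tissue factor, which starts blood clotting, read 6.78 and 6.75 in MCF10.AT1 against 8.12, 7.76 and 8.15 in MCF10.AT1-R, a log2 change of 1.24 (SE 0.31, limma adjusted p = 0.0091). It did not pass without A01 (limma adjusted p = 0.191), A02 (0.242), B02 (0.051) or B04 (0.059).

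IGFBP3, a secreted protein that binds insulin-like growth factors, went the other way, at 6.76 and 6.97 in MCF10.AT1 against 5.85, 5.61 and 6.20 in MCF10.AT1-R. Its log2 change was -0.98 (limma adjusted p = 0.0977), and it passed with the trend option (limma adjusted p = 0.000207). NUAK2, a stress kinase, was below background on both MCF10.AT1 arrays and above it on 1 MCF10.AT1-R array, so no change is given. The log2 changes of the 10 tested targets ranged from -0.98 to 1.24 with a median of 0.36. Of these, 5 were higher and 2 lower on every MCF10.AT1-R array, against 12.9% and 13.8% of all tested probe sets. With the trend option 2 passed as higher (F3 and NT5E) and 1 as lower (IGFBP3), against 1.69% and 0.981%. NT5E, with a log2 change of 0.49, is named after its values were seen. The other 6 targets were removed for a low SD, among them MYOF at 6.82 and 6.66 in MCF10.AT1 against 6.81, 7.02 and 6.87 in MCF10.AT1-R, named after its values were seen.

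**Figure D4:**
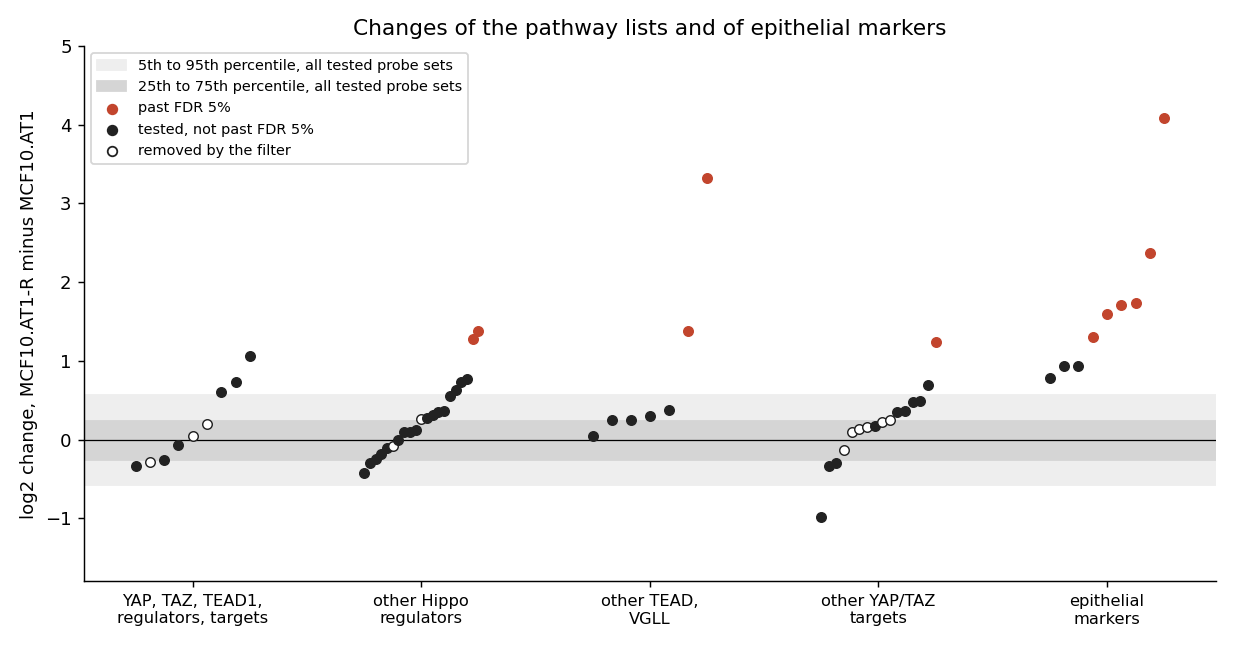
Log2 change (y axis, MCF10.AT1-R minus MCF10.AT1) of every gene of the pathway lists and of 9 epithelial markers (x axis), with grey bands for the spread of all tested probe sets; ANKRD1 is not drawn. Of the pathway genes 5 are past FDR 5%, VGLL1 the highest at a fitted 3.32 against MCF10.AT1 values within background, and all 9 epithelial markers lie at 0.78 or above.

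The 9 basal and general epithelial markers were higher in MCF10.AT1-R, while most markers of other cell types did not pass the test. All 7 basal epithelial markers (KRT5, KRT14, KRT17, TP63, CDH3, LAMB3 and ITGB4) were above background on all 5 arrays and higher on every MCF10.AT1-R array, and 5 of them passed an FDR of 5% in limma. Of all tested probe sets, 12.9% were higher on every MCF10.AT1-R array and 0.758% passed as higher. The sum of their log2 values was 47.53 and 48.01 in MCF10.AT1 against 60.85 to 61.55 in MCF10.AT1-R. A second CDH3 probe set, at a mean of 6.75, showed a log2 change of 0.19, against 0.93 for the probe set used. The general epithelial genes CDH1 and EPCAM were also higher on every MCF10.AT1-R array, and CDH1 passed. With A03 added, KRT17 alone of these 9 genes passed (limma adjusted p = 0.0387).

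Of the 7 fibroblast markers, LUM and PDGFRB were within background on all 5 arrays, and DCN alone passed, with a log2 change of -2.15 (limma adjusted p = 3.88e-09, and 0.777 with A03 added). The sum over the 7 was 30.17 and 30.67 in MCF10.AT1 against 27.57 to 28.70 in MCF10.AT1-R, and without DCN it was 24.85 and 25.34 against 24.80 to 25.45. Of the 4 endothelial markers KDR was within background on all 5 arrays, and PECAM1 alone passed, with a log2 change of -1.12 (limma adjusted p = 0.0307). Of all tested probe sets, 0.447% passed as lower. PECAM1 did not pass with the low-expression filter alone (limma adjusted p = 0.123) or with A03 added (0.827). The endothelial sum was 13.40 and 13.79 against 11.62 to 12.68, and without PECAM1 it was 9.07 and 9.55 against 8.21 to 9.63. DCN and PECAM1 were left out because they passed in these same data, so the sums without them are a description and not a test. Among the 4 leukocyte markers PTPRC was within background on all 5 arrays and none passed, with sums of 12.00 and 13.75 against 13.43 to 14.38.

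Hybridization controls, which are added after labelling, averaged 10.58 in MCF10.AT1 against 11.02 in MCF10.AT1-R. The part of these markers and controls in the values of the pathway genes was not tested. In total RNA of whole cultures, fewer cells of a type and less RNA per cell cannot be told apart. The letter of the array names follows the line, and the labels do not say what the letter stands for. Any effect that goes with this letter cannot be told apart from the line either.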

How the data were processed

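Clariom D arrays were run on total RNA from 3 replicates each of MCF10.AT1 and MCF10.AT1-R. The authors deposited expression on the log2 scale, summarised for each probe set by RMA with the Bioconductor packages affy and oligo over all 6 arrays and not filtered. Versions of affy and oligo, genome build and annotation are not given in the sources used here. The table holds 138745 rows, of which 2995 control probe sets were left out of the tests. Array names map to a line through a plot of the study and carry no replicate number.

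The filter kept probe sets with a mean over 5 arrays higher than the median of all (1.88) and an SD higher than the lowest 25% (0.18). These limits are not stated in the study. The test was limma 3.58.1 (R 4.3.3; lmFit, then eBayes; two-sided, Benjamini-Hochberg, FDR 5%, 95% intervals). After this filter limma used 1 common SD of 0.34 for every probe set, hence 1 standard error of 0.31, which limits the power for changes of about 2-fold. RMA shrinks changes of dim probe sets. The fit was tested on simulated data of this design, where the share of false calls exceeded the nominal FDR and most changes of 2-fold were missed. The alternatives changed the arrays, the filters, the variance model, the normalization, the floor, array weights or the handling of several probe sets.

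The members and lists were chosen with earlier results of these data known. Genes named outside the 10 are those past FDR 5%, the 3 with the largest absolute change of each list, and the markers, and any further list gene was named after its values were seen. A further gene list is not reported here. Precision is limited by how few arrays there are.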

Additional observations from a re-analysis of the deposited data

How the results depend on the processing

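The count of the 10 genes past FDR 5%, which was 0, became 1 (AJUBA) with the trend option, with the low-expression filter alone and the trend option, with values raised to the 95th percentile of the negative controls and with array weights, and stayed at 0 when any array was left out. The count of 5 genes without overlap was 3 with A03 added, where 15.3% of the probe sets tested over 6 arrays had this order. Except for AMOTL2, this followed from the low A03 values. With 1 array left out the count was between 5 and 8, the highest without A01, where a single MCF10.AT1 array remains. Fewer arrays overlap less readily, and the share of all probe sets was not counted at these settings. The counts with 1 array left out are therefore not read as a result. Over all tested probe sets the 620 calls became 26 with A03 added, 182 with the low-expression filter alone, 177 without a filter, 1377 with the trend option, 1086 with that filter and the trend option, 556 with values raised to the negative controls, 735 with array weights, and 271 (without A02) to 595 with 1 array left out, where a lone MCF10.AT1 array is assumed to vary like the others. The 2 calls among other Hippo regulators became 0 with A03 added, with the low-expression filter alone and without a filter, 5 with the trend option, 4 with the low-expression filter and the trend option, 1 with probe sets averaged, and 0 to 2 with 1 array left out. The 2 calls among TEAD and VGLL genes became 1 with A03 added and without a filter, and 1 to 2 with 1 array left out. The 1 call among other targets became 0 with A03 added, with the low-expression filter alone and without a filter, 3 with the trend option and with both, and 0 to 1 with 1 array left out.

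The sign turned with A03 added for YAP1 (0.72), WWTR1 (0.44), CTGF (0.29) and IGFBP3 (0.48), while the -0.09 of NUAK2 with values raised to the negative controls is a difference of floors, since 4 of its 5 values lay below them. With 1 array left out YAP1 ranged from -0.22 to 0.06 and AXL from -0.05 to 0.14. TEAD1, LATS2, CYR61, AMOTL2 and AJUBA kept their sign under every alternative run, with AJUBA between 0.90 and 2.18. Quantile normalization repeated over the 5 arrays and centring each array left each of these counts within 1.5 times, and centring moved the median change by 0.007. Apart from the settings that change which probe sets or arrays are tested, the cause of these shifts was not tested. No paired analysis was possible because the array names carry no replicate number. Signal over background limits ANKRD1, VGLL2, NUAK2 and the regulators DCHS1, AMOT and TAOK3, which lay at or near the negative controls. All of these except ANKRD1 were tested and count in the medians given for the lists.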
